A study of Saccharomyces cerevisiae with 15 samples.

Results

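The 5 aldehyde dehydrogenase genes ALD2 (YMR170C), ALD3 (YMR169C), ALD4 (YOR374W), ALD5 (YER073W) and ALD6 (YPL061W) of budding yeast were followed in ribosome footprints and RNA of cells without and with glucose. They were taken as a gene family by their systematic names. No measured value entered that rule, but earlier results of these data were known when it was made. All 5 were present among the 5703 genes analysed. All cells were labelled WT and were of the strain YWG25 in the Sigma1278b background and were grown in rich YPD medium at 30 °C to mid-log density (OD about 0.7). Cells without glucose (-GLU) were compared with cells with glucose (+GLU), in a series about gene-specific changes of translation on loss of glucose and their control by protein kinase A. Each state had 3 footprint libraries and 3 RNA libraries. For both kinds the labels name cycloheximide at 100 µg/ml, which blocks elongation. A further 3 footprint libraries were made without the drug: 1 of -GLU cells whose description names no filtration, 1 of -GLU cells harvested fast by filtration and 1 of +GLU cells harvested in that same fast way. The descriptions of these 3 say that the drug was left out, while the treatment text shared by all samples names it, and the descriptions were followed. The labels give neither how long glucose was missing nor whether replicates were separate cultures, and a p-value here reflects no more than the spread among these samples, which could be technical.

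Aldehyde dehydrogenases oxidise aldehydes to acids. In yeast their best known work is to turn acetaldehyde, made from pyruvate in fermentation or from ethanol in respiration, into acetate, which is then activated to acetyl coenzyme A. Ald6, in the cytosol, uses NADP+ and is a major source of acetate and NADPH during growth on glucose. Ald4, in the mitochondria, is the main form in growth on ethanol and is repressed by glucose. Ald5 is a second mitochondrial form that prefers NADP+. Ald2 and Ald3 are cytosolic enzymes that use NAD+, are induced by stress and take part in making beta-alanine, a precursor of pantothenate, from polyamines.

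ALD2 and ALD3 are near copies of each other, and this bears on every value given for either. In the reference genome R64 (RefSeq, strain S288C) both lie on the minus strand of chromosome XIII, ALD3 at 599352 to 600872 and ALD2 at 601562 to 603082, with 689 bases between the coding sequences. Their coding sequences, 1521 bases each, are identical at 91.8% of positions and differ at 125. The first 329 coding bases are the same in both, and their first 60 bases are shown for both genes because no fragment from there can be placed on 1 gene. The 60-base window with the most differences, 21 of them in capitals, follows, and lies at coding bases 1450 to 1509.
ALD2 start (chrXIII:603023-603082, minus strand): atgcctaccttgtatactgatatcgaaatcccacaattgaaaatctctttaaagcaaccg
ALD3 start (chrXIII:600813-600872, minus strand): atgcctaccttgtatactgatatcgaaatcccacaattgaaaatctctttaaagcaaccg
ALD2 end (chrXIII:601574-601633, minus strand): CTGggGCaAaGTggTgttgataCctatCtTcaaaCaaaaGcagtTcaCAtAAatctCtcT
ALD3 end (chrXIII:599364-599423, minus strand): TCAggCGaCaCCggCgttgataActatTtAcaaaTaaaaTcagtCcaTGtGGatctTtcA
Of the 1494 windows of 28 bases in each coding sequence, the length of a footprint, 773 (51.7%) occur in both genes. The other members have no such window elsewhere in the genome: ALD4 is on chromosome XV at 1039840 to 1041399, ALD5 on V at 304030 to 305592 and ALD6 on XVI at 432588 to 434090, all on the plus strand. Each of the 5 genes has 1 coding segment, without introns, and overlaps no other annotated gene. How reads common to ALD2 and ALD3 were assigned is not given in the sources used here. In +GLU footprint replicate 1 the authors counted 68 reads for ALD2 and 0 for ALD3. Values of ALD2 and ALD3 are therefore uncertain as single genes, and a test on their sum is given below.

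In both assays the -GLU library numbered 3 stood apart from its group. In -GLU footprint replicate 3, 18.1% of 5213 genes lay at least 2-fold from both other replicates, and in -GLU RNA replicate 3 9.21%, against at most 3.57% in any other library. The length over which the authors counted also differed: for the members it was the coding length plus 2 nt in both of these libraries and in +GLU RNA replicate 1, and the coding length less 24 nt in the other libraries. What part this plays in the members' values was not tested. Library depth was 10591879 to 12480932 counts in -GLU RNA and 2423486 to 12560502 in +GLU RNA, 2391712 to 7921427 in -GLU footprints and 4159880 to 8680468 in +GLU footprints, and 1610986 to 30575562 without the drug. For poly(A) selection, DynaBeads were used in +GLU replicates 2 and 3 and cellulose in the other RNA libraries, so the bead type is partly confounded with the glucose state. The descriptions name an rRNA subtraction for +GLU RNA replicates 1 and 2 and for no other RNA library.

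The summed level of the family was higher in every library without glucose, and the genes that made it up differed. Levels between genes are given as deposited RPKM, reads per kilobase of counted length scaled to the reads counted in the library. The summed RNA level of the 5 genes was 3947, 3433 and 3857 RPKM in -GLU replicates 1, 2 and 3, against 1024, 890 and 1029 RPKM in +GLU replicates. The summed footprint level was 5615, 5996 and 3842 RPKM in -GLU replicates, against 1230, 1441 and 1341 RPKM in +GLU replicates. In neither assay did the states overlap. Of the summed RNA level, ALD4 held 78.0% ± 12.2 without glucose and 2.88% ± 0.684 with glucose (mean ± SD, n = 3 each). ALD5 held 3.40% ± 1.81 of it without glucose and 50.4% ± 4.80 with glucose, and ALD6 15.7% ± 11.9 without and 44.7% ± 4.43 with glucose. In footprints ALD4 held 87.7% ± 6.86 without glucose and 2.34% ± 0.353 with glucose. ALD6 held 9.43% ± 8.29 of the footprint sum without glucose and 73.2% ± 2.19 with glucose. ALD2 held at most 2.02% and ALD3 at most 2.96% of the sum in any library, as the plot of shares shows.

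**Figure D1:**
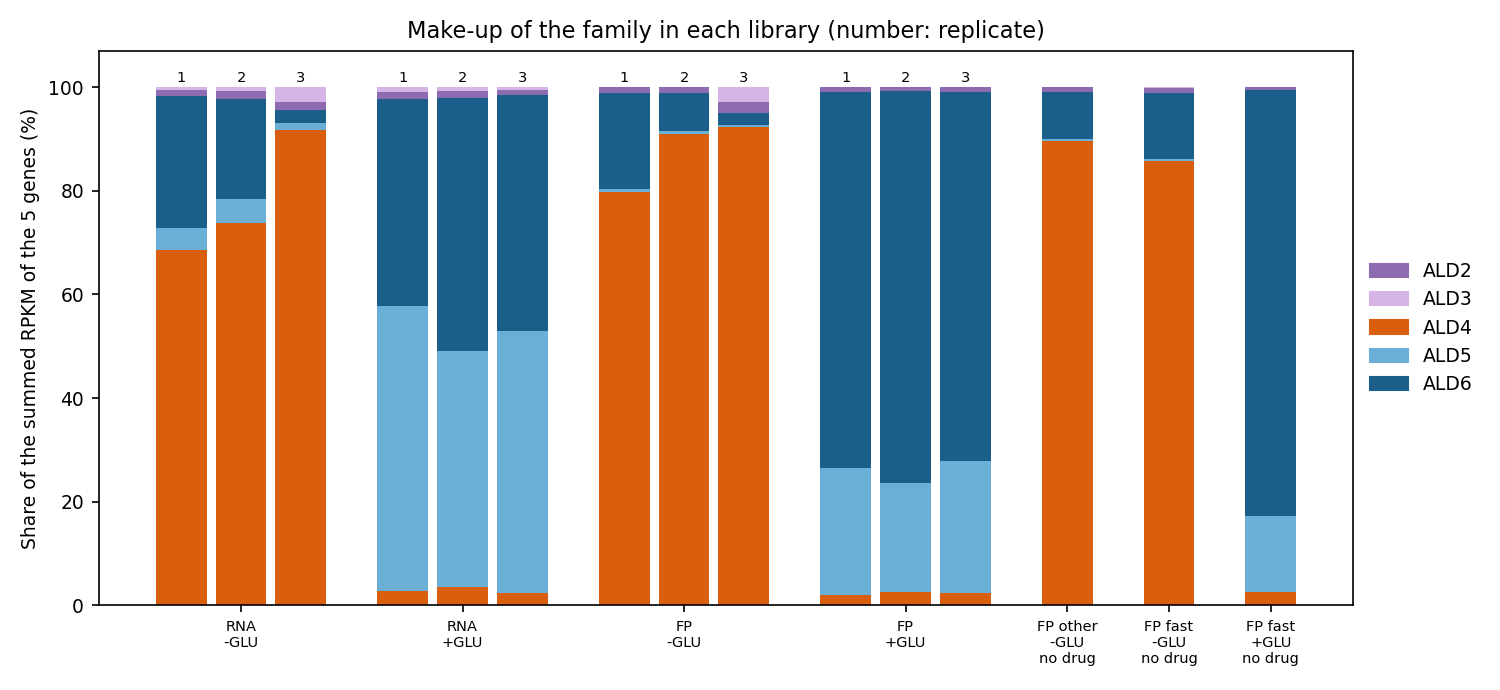
Share of each gene (vertical axis, percent) in the summed RPKM of the 5 aldehyde dehydrogenase genes, 1 bar per library, grouped by assay and glucose state, with the replicate number above each bar. ALD4 makes up 68.5% to 91.8% of the RNA sum and 79.8% to 92.4% of the footprint sum without glucose and at most 3.63% of either with glucose, where ALD5 and ALD6 fill the bars.

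The order of the levels differed between the states. In -GLU RNA the order by mean was ALD4, ALD6, ALD5, ALD2 and ALD3, and of these neighbours only ALD4 lay above the next with no overlap of their libraries. In RNA, ALD4 had 2704, 2536 and 3539 RPKM in the -GLU replicates, above 99.7% of all genes by its mean. In +GLU RNA the order was ALD5, ALD6, ALD4, ALD2 and ALD3, and ALD5 (497 ± 82.4 RPKM) and ALD6 (437 ± 30.3 RPKM) did not differ beyond their spread (SD, n = 3 each). The other neighbours in +GLU RNA did not overlap. In -GLU footprints the order was ALD4, ALD6, ALD2, ALD3 and ALD5, where ALD2 and ALD3, and ALD3 and ALD5, overlapped. In +GLU footprints ALD6 (980 ± 99.8 RPKM) led ALD5 (315 ± 21.7 RPKM), ALD4 (31.6 ± 7.04 RPKM), ALD2 (11.2 ± 0.673 RPKM) and ALD3, with no overlap between neighbours. The order was the same in every group when counts were divided by the annotated coding length.

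**Figure D2:**
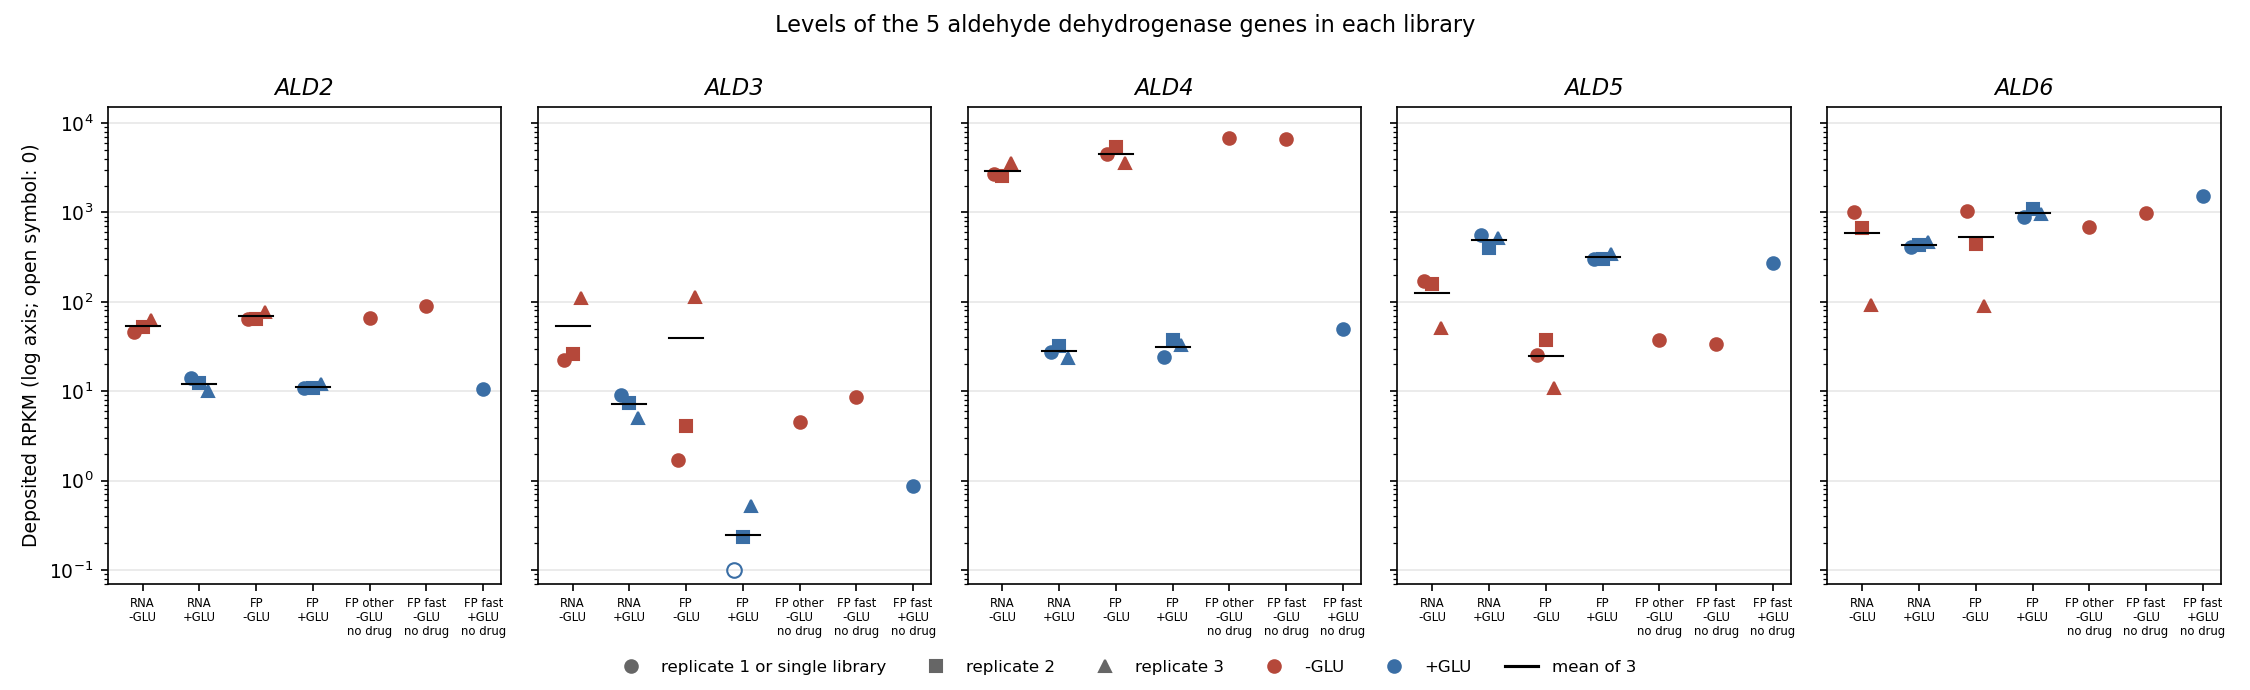
Deposited RPKM (log axis) of each gene in all 15 libraries, with 3 replicates per group by symbol and the mean as a bar, and single symbols for the libraries without cycloheximide. The 2 mitochondrial genes ALD4 and ALD5 move in opposite directions, while the -GLU triangles (replicate 3) lie far above the other -GLU symbols for ALD3 and far below them for ALD6; the open symbol marks 0 counts of ALD3 in +GLU footprint replicate 1.

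The first comparison asked how the 5 mRNAs differed in abundance between -GLU and +GLU cells. Of the 5, ALD2, ALD3 and ALD4 rose and ALD5 fell, and ALD6 did not pass the test (edgeR quasi-likelihood test, Benjamini-Hochberg adjusted over 5519 genes at 0.05). Among all genes 60.6% were called, 30.4% higher and 30.2% lower, so 4 calls among 5 genes lie near the background. For these 4 genes every -GLU library lay on one side of every +GLU library, as for 68.4% of all genes. In bulk samples, RNA from fewer cells and less RNA per cell cannot be told apart. Values below are counts scaled to library size (CPM) normalised within each comparison, and a change is the log2 ratio of -GLU over +GLU ± SE. Libraries were scaled to each other, so a change is relative to other genes. With total counts in place of the scaling factors, the median gene moved by 0.14 in RNA, 0.44 in footprints and 0.24 in efficiency on the log2 scale, which turned no called direction of a member.

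ALD4, for the mitochondrial enzyme of growth on ethanol, had the largest rise of the 5. In RNA it had 3760, 3611 and 5629 CPM in -GLU replicates 1, 2 and 3, against 39.9, 56.9 and 40.2 CPM in +GLU replicates. Every -GLU library lay above every +GLU library, as for 34.5% of all genes tested. The log2 change was 6.57 ± 0.47, or 95.1-fold (adjusted p = 1.40e-05), the 36th largest rise of 5519 genes.

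ALD5, for the other mitochondrial enzyme, went the opposite way. It had 236, 225 and 81.5 CPM of RNA in -GLU replicates, against 815, 714 and 888 CPM in +GLU replicates. All -GLU libraries were lower than all +GLU libraries, which held for 33.9% of genes. Its change was -2.15 ± 0.40 (adjusted p = 0.00151), and -1.79 ± 0.25 without -GLU RNA replicate 3.

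ALD6, for the cytosolic NADP+ enzyme, differed more among the -GLU libraries than between the states. In RNA it had 1345, 907 and 142 CPM in -GLU replicates, against 568, 735 and 768 CPM in +GLU replicates. The first and second -GLU libraries lay above all +GLU libraries and the third below all of them. The change was 0.21 ± 0.63 (adjusted p = 0.79). It was 0.72 ± 0.29 without -GLU RNA replicate 3 (adjusted p = 0.0576) and -0.39 without -GLU RNA replicate 1, and no alternative called it (adjusted p 0.0576 to 0.97).

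The stress-induced pair ALD2 and ALD3 rose from low levels. In RNA, ALD2 had 62.7, 71.9 and 98.2 CPM in -GLU replicates, against 19.8, 21.0 and 16.4 CPM in +GLU replicates, a change of 2.02 ± 0.25 (adjusted p = 1.79e-04). In RNA, ALD3 had 30.5, 36.3 and 172 CPM in -GLU replicates, against 12.9, 12.5 and 8.22 CPM in +GLU replicates. Both genes had no overlap between the states, but for ALD3 the third -GLU library alone was several times above the other two. The change of ALD3 was 2.79 ± 0.66 (adjusted p = 0.00532), and 1.56 ± 0.28 without -GLU RNA replicate 3 (adjusted p = 0.00131, range over its alternatives 6.76e-06 to 0.16). The summed counts of the pair changed by 2.37 ± 0.41 (adjusted p = 9.77e-04).

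Within the cellulose-selected RNA libraries, which leave 1 +GLU library that is assumed to vary like the others, the changes were 2.01 for ALD2 (adjusted p = 0.0230), 2.66 for ALD3 (adjusted p = 0.16), 6.80 for ALD4 (adjusted p = 0.0119), -2.14 for ALD5 (adjusted p = 0.0504) and 0.53 for ALD6. Within the libraries without rRNA subtraction, again with 1 +GLU library, they were 2.24, 3.27, 6.75, -2.30 and 0.05 in the same order, and ALD3 was not called (adjusted p = 0.13). Every direction was thus as in the fit over all 6 libraries, and the calls of ALD3 in both and of ALD5 in the first were lost.

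The second comparison asked how the ribosome footprints on the 5 genes differed between the states. The same 3 genes rose and ALD5 fell, against 64.8% of 5319 genes called, 33.8% higher and 31% lower, and ALD6 again did not pass the test. On the normalised CPM scale, for all 5 genes the -GLU libraries lay wholly on one side of the +GLU libraries, as for 72.2% of all genes. ALD4 footprints were at 6142, 7330 and 4486 CPM in -GLU replicates, against 40.4, 69.5 and 60.9 CPM in +GLU replicates. All -GLU libraries were higher, as for 36.7% of genes, and the change was 6.71 ± 0.44, or 105-fold (adjusted p = 2.87e-05). The change in footprints was thus close in size to the change in RNA. ALD5 footprints were at 35.3, 50.9 and 13.9 CPM in -GLU replicates, against 509, 558 and 628 CPM in +GLU replicates. They fell by 4.08 ± 0.47 on the log2 scale, or 16.9-fold (adjusted p = 2.37e-04), with all -GLU libraries lower, as for 35.5% of genes.

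ALD6 footprints spread widely without glucose. They were at 1375, 574 and 110 CPM in -GLU replicates, against 1453, 1929 and 1700 CPM in +GLU replicates. On this scale all -GLU libraries were lower than all +GLU libraries. In deposited RPKM they overlapped, with -GLU replicate 1 (1042 RPKM) above +GLU replicates 1 (894 RPKM) and 3 (956 RPKM). The change of -1.30 ± 0.75 did not pass the test (adjusted p = 0.16). It was -0.80 ± 0.34 without -GLU footprint replicate 3 (adjusted p = 0.0612) and was called without -GLU footprint replicate 1, at -2.31 (adjusted p = 0.0265, range over its alternatives 0.0265 to 0.31).

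For ALD2, footprints were nearly equal within each state. They were at 86.1, 84.3 and 95.4 CPM in -GLU replicates, against 18.0, 19.3 and 21.6 CPM in +GLU replicates, a rise of 2.17 ± 0.17 (adjusted p = 4.41e-05). ALD3 footprints were scarce outside 1 library. The counts were 20, 15 and 414 in -GLU replicates 1, 2 and 3, against 0, 3 and 5 in +GLU replicates. In CPM they were 2.25, 5.34 and 140 in -GLU replicates, against 0, 0.414 and 0.923 in +GLU replicates, where 3 counts, the limit that a count of 0 allows, correspond to 0.792 CPM in replicate 1 on the same scale. The change of 6.58 ± 1.91 (adjusted p = 0.0179) rested for its size on -GLU footprint replicate 3. It was 2.76 ± 0.82 without that library (adjusted p = 0.0136) and lost its call without +GLU footprint replicate 1 (6.12, adjusted p = 0.0702) or 2 (6.41, adjusted p = 0.0662), with a range of 4.73e-04 to 0.0702 over its alternatives. The pair's summed footprint counts changed by 2.77 ± 0.42 (adjusted p = 8.95e-04).

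**Figure D3:**
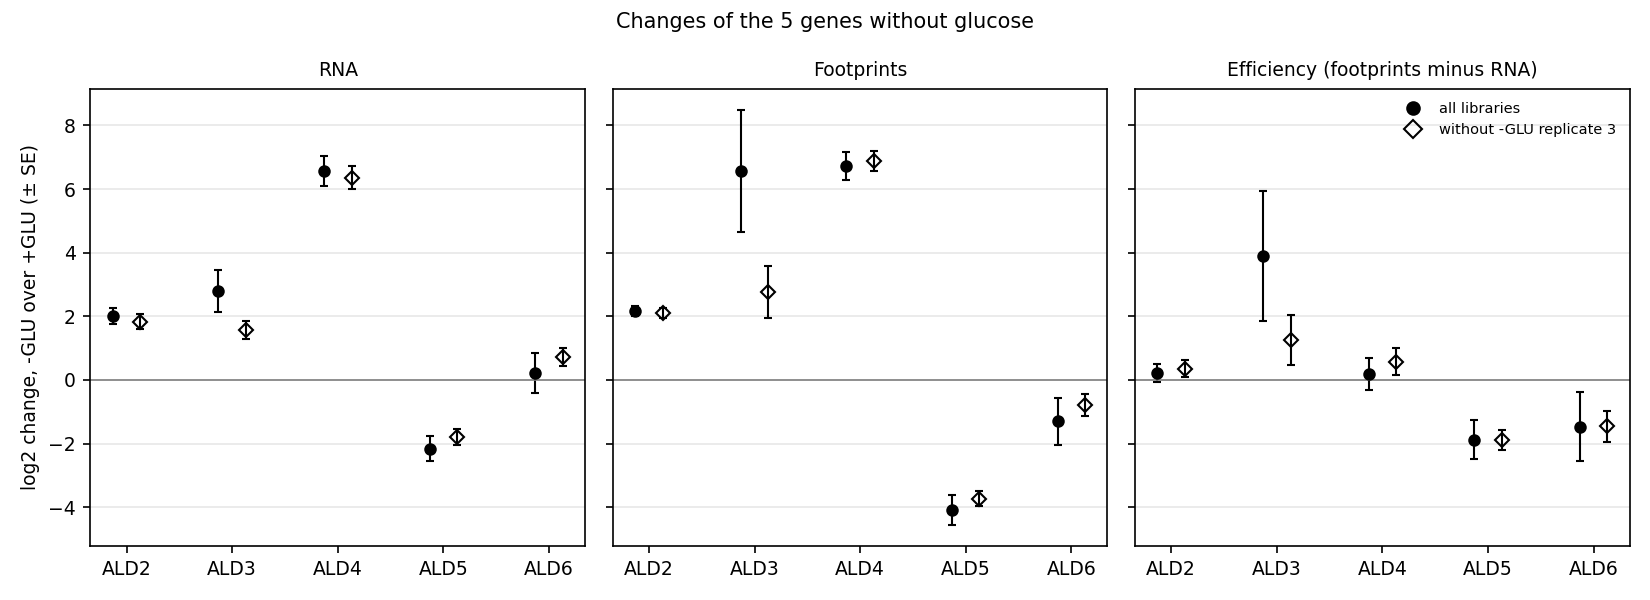
Log2 change of -GLU over +GLU (vertical axis, ± SE) of each gene in RNA, footprints and efficiency, with all libraries (filled) and without the -GLU libraries numbered 3 (open; in the efficiency panel both of them are left out). ALD4 footprints stand at 6.88 without that library and 6.71 with all libraries, and ALD3 footprints at 2.76 without it and 6.58 with all libraries.

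Translational efficiency, the footprint level per RNA level, was compared in 1 model over 12 libraries, and the change is that of footprints minus that of RNA. None of the 5 genes was called, against 13.7% of 5509 genes, 9.24% higher and 4.48% lower. Without glucose, RNA and footprint libraries of equal number deviated together from their group means (correlations over genes of 0.40 to 0.64), and with glucose they did so less (0.089 to 0.19). However, -GLU RNA replicate 2 stood at 0.38 with -GLU footprint replicate 1, beside 0.40 with its own number. With a replicate block nested in the glucose state, a fit chosen after seeing the data, 1435 genes were called, among them ALD5 at -1.91 ± 0.30 (adjusted p = 0.00132) and ALD6 at -1.57 ± 0.34 (adjusted p = 0.0067). That fit assumes that equal numbers pair in both states. Without the block, at an unadjusted p under 0.05 ALD5 alone of the 5 passed, and of the 4 for which DESeq2 gave an adjusted p it called ALD5 alone. ALD5 changed by -1.88 ± 0.61 (adjusted p = 0.0589), and 1.54% of genes had a lower value. Without both -GLU libraries numbered 3 the change of ALD5 was -1.88 ± 0.30 and was called (adjusted p = 0.00115, range over its alternatives 0.00115 to 0.12). ALD6 changed by -1.46 ± 1.07 (adjusted p = 0.37), and by -1.46 ± 0.48 without both of these libraries (adjusted p = 0.0417, range over its alternatives 0.0067 to 0.54). For ALD4 the change was 0.20 ± 0.50 and for ALD2 0.21 ± 0.29, neither called, beside rises of 95.1-fold for ALD4 and 4.05-fold for ALD2 in RNA. ALD3 changed by 3.89 ± 2.05 (adjusted p = 0.22), and by 1.27 ± 0.79 without both libraries numbered 3. Without -GLU footprint replicate 3 alone it was 0.04.

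As a level, efficiency was the ratio of the mean footprint RPKM to the mean RNA RPKM. ALD6 stood high with glucose, at 2.24, above 98.2% of 5347 genes, and was at 0.895 without glucose, above 64.3% of 5453 genes. Between libraries of equal replicate number, a pairing that the labels do not explain, the ratio for ALD6 was 1.04, 0.669 and 0.976 without glucose, against 2.19, 2.51 and 2.04 with glucose. For ALD5 these ratios were 0.152, 0.239 and 0.214 without glucose, against 0.533, 0.749 and 0.652 with glucose. In both genes the ratios of the states did not overlap when read this way, but over all 9 pairs of libraries in a state they did. The share of all genes without overlap in this reading was not counted, so it is not known whether this is unusual. The ratio for ALD2 was 1.28 without glucose and 0.931 with glucose, and that for ALD4 1.54 without and 1.13 with glucose.

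With glucose ALD3 carried few footprints for its RNA. The ratio of means was 0.0348, below which lay 0.636% of 5347 genes, and it rested on 0, 3 and 5 footprint counts. Without glucose the ratio of means was 0.749, above 53.3% of 5453 genes. There the ratio between libraries of equal number was 0.0750, 0.155 and 1.03, so the third pair lay far above the others. ALD2, with 51.7% of its windows in common with ALD3, had 1.39, 1.24 and 1.22 in the same libraries. The part that the assignment of common reads plays in these ratios was not tested.

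**Figure D4:**
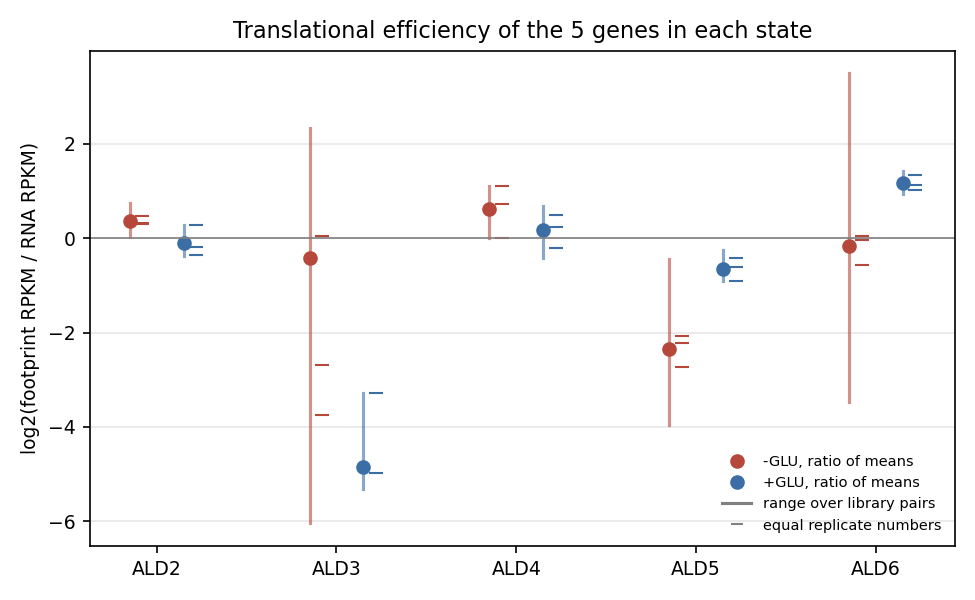
Translational efficiency, as log2 of footprint RPKM over RNA RPKM (vertical axis), for each gene without (red) and with glucose (blue). Dots are ratios of means, lines the range over pairs of libraries and dashes the pairs of equal replicate number; ALD3 with glucose is the lowest dot, at -4.85, and ALD6 with glucose the highest, at 1.16.

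The libraries without cycloheximide asked whether the same pattern stood when no drug was added. There was 1 library of each kind, hence no test, and intervals are exact 95% intervals that cover counting error only. In fast-harvested cells ALD4 had 88235 counts without glucose (10295 CPM by total counts), against 2339 counts with glucose (76.5 CPM), a ratio of 135 (129 to 140). ALD5 had 446 counts without glucose, against 12828 with glucose, a ratio of 0.124 (0.113 to 0.136). ALD2 had 1137 counts without glucose, against 478 with glucose, a ratio of 8.49 (7.62 to 9.46). ALD3 had 110 counts without glucose, against 40 with glucose, a ratio of 9.81 (6.77 to 14.5). ALD6 had 12477 counts without glucose, against 69624 with glucose, a ratio of 0.639 (0.627 to 0.652). ALD2, ALD3 and ALD4 thus lay at least 2-fold higher, as did 32.2% of 5414 genes, and ALD5 at least 2-fold lower, as did 19.5%. ALD6 reached 2-fold lower with TMM factors, at -1.09 on the log2 scale, against -0.65 by total counts.

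The 2 drug-free -GLU libraries lay nearer to -GLU footprint replicates 1 and 2 than to replicate 3 for the genes on which the replicates parted. ALD3 was at 4.56 RPKM in the library with no filtration named and 8.57 RPKM in the fast one, beside 1.69, 4.07 and 114 RPKM in the replicates with the drug. ALD6 was at 688 RPKM in the library with no filtration named and 984 RPKM in the fast one, beside 1042, 443 and 90.6 RPKM with the drug. Between the 2 harvests, the library with no filtration named over the fast one, the ratio was 1.02 (0.999 to 1.03) for ALD4, 0.749 (0.630 to 0.884) for ALD2, 0.532 (0.258 to 0.990) for ALD3, 1.11 (0.877 to 1.39) for ALD5 and 0.699 (0.663 to 0.736) for ALD6. By total counts no member reached a 2-fold difference, and with TMM factors ALD3 did, at -1.10 on the log2 scale against -0.91 by total counts; a 2-fold difference by total counts was reached by 8.65% of 5315 genes upward and 13.3% downward.

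Each member's pattern over the 12 libraries was set against all genes with a mean of at least 10 CPM, by the root mean square difference of log2(CPM + 1) after centring each gene on its mean. Nearest to ALD4 were GUT2, for the mitochondrial glycerol phosphate dehydrogenase (0.39), IGD1, for an inhibitor of glycogen debranching (0.49), and ACH1, for a mitochondrial enzyme that moves coenzyme A between acids such as acetate (0.58), where the median gene was at 3.40. ALD5 was nearest to SYO1, a chaperone of ribosomal proteins (0.32), and to DRS1 and NOG1, a helicase and a GTPase of large ribosomal subunit assembly (0.33 each), with the median gene at 1.91. ALD6 was nearest to FAS1 (0.37), ACC1 (0.49) and FAS2 (0.50), for the subunits of fatty acid synthase and for acetyl coenzyme A carboxylase, with the median gene at 1.54. ALD2 was nearest to the transcription factor gene CST6 (0.17), to MDM34, of the tether between mitochondria and endoplasmic reticulum (0.19), and to CUE5, an autophagy receptor (0.22). The nearest genes to ALD3, YHR007C-A (0.79), the metallothionein gene CRS5 (0.90) and YMR090W (0.94), were farther off. The median gene was at 1.28 from ALD2 and at 2.34 from ALD3. Among the members, ALD5 and ALD6 were nearest to each other (1.59) and ALD4 and ALD5 farthest (5.08). Even so, ALD5 lay farther from ALD6 than the median gene did (1.54), while ALD6 lay nearer to ALD5 than the median gene did (1.91). These distances share libraries, depth and the -GLU replicate 3 values.

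The genes around the family, in lists chosen by role, are given beside the members, and their counts stand against 30.4% of all genes called higher and 30.2% lower in RNA, and 33.8% higher and 31% lower in footprints. Of 6 genes that take up, activate or exchange acetate, 5 rose and 0 fell in RNA, with a median log2 change of 6.76, against 0.01 over all genes tested. ACS1, the acetyl coenzyme A synthetase repressed by glucose, had 3491 ± 695 CPM without glucose and 16.6 ± 2.04 CPM with glucose, a rise of 7.73 ± 0.45. ADY2, an acetate transporter, rose by 9.56 ± 0.42 and ATO2, its paralog, by 9.54 ± 0.74. In footprints 5 rose and ACS2, the synthetase of glucose growth, fell by 1.73 ± 0.46. ACS1 was also called in efficiency, at 3.13 ± 0.59, as was ADY2, at 3.03 ± 0.77, and 1 of the 2 calls was lost when +GLU RNA replicate 2 or 3, +GLU footprint replicate 2 or 3 or -GLU RNA replicate 2 was left out.

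Of 9 genes that make or use acetaldehyde, 3 rose and 4 fell in RNA (median -0.10), and in footprints 1 rose and 5 fell (median -0.57). The 7 calls in RNA became 3 within the cellulose libraries and 4 within those without rRNA subtraction. ADH2, the alcohol dehydrogenase that oxidises ethanol, rose by 8.36 ± 0.60 in RNA and 10.09 ± 0.83 in footprints. PDC1, the main pyruvate decarboxylase, changed by -3.90 ± 0.77 in RNA and -6.96 ± 0.57 in footprints, and was called in efficiency (adjusted p = 0.0464). PDC5, a minor decarboxylase, changed by -1.20 ± 0.24 in RNA and -6.16 ± 0.61 in footprints, and by -4.90 ± 0.64 in efficiency (adjusted p = 0.00144). PDC5 had only 1.43 ± 1.53 CPM in -GLU footprints, where 3 counts correspond to 0.338 to 1.07 CPM. The sizes of its footprint and efficiency changes thus rest on values near that limit and are uncertain. The acetaldehyde list had 3 calls in efficiency, all lower, against 4.48% of all genes. It had 2 when any 1 +GLU library of the model, -GLU RNA replicate 3 or -GLU footprint replicate 1 was left out. ADH1, the fermentative alcohol dehydrogenase, changed by -2.47 ± 0.70 in RNA and -2.99 ± 0.80 in footprints. The mitochondrial ADH3 rose by 1.07 ± 0.28 and the decarboxylase gene PDC6 by 1.41 ± 0.43 in RNA, and neither passed the test in footprints (0.76 and 0.44). PDC1 and PDC5, and ADH1 and ADH2, are close paralogs whose reads the counting could split. The 5 subunits of pyruvate dehydrogenase, the route to acetyl coenzyme A that does without these enzymes, all rose in RNA (median 1.42), PDA1 at 1.92 ± 0.36, LPD1 at 1.79 ± 0.32 and PDB1 at 1.42 ± 0.30. Within the cellulose libraries 2 of 5 were called and within those without rRNA subtraction 1 of 5. In footprints 2 of 5 rose (median 0.60), among them LPD1 at 1.55 ± 0.44, while PDA1, at 0.20 ± 0.24, and PDB1, at 0.38 ± 0.23, did not pass the test. That footprint count was 5 with total counts, 0 without +GLU footprint replicate 1, and 1 without +GLU footprint replicate 2 or 3 or -GLU footprint replicate 2. In efficiency PDA1 alone of the 5 was called, at -1.67 ± 0.43 (adjusted p = 0.0253). No subunit was called there without +GLU RNA replicate 3 or +GLU footprint replicate 2 or 3.

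Of 10 genes of other routes to NADPH, 6 rose and 3 fell in RNA (median 1.30), and 5 rose and 3 fell in footprints (median 0.34). IDP2, the cytosolic isocitrate dehydrogenase, rose by 7.30 ± 0.57 in RNA and 10.10 ± 0.87 in footprints, and SOL4, a lactonase of the pentose phosphate pathway, by 5.50 ± 0.64 and 7.10 ± 0.82. GND1, the main phosphogluconate dehydrogenase, changed by -3.48 ± 0.38 in RNA and -4.48 ± 0.28 in footprints, and MAE1, the mitochondrial malic enzyme, by -2.71 ± 0.30 in RNA. IDP3, the peroxisomal isocitrate dehydrogenase, rose by 3.37 ± 0.35 in RNA and 5.14 ± 0.51 in footprints. SOL3, another lactonase, changed by -1.58 ± 0.32 in RNA and -2.46 ± 0.47 in footprints. In efficiency 1 of the 10 was called higher, IDP2 at 2.86 ± 0.84 (adjusted p = 0.0432), and 2 lower, against 9.24% and 4.48% of all genes. IDP2 had only 2.02 ± 1.79 CPM in +GLU footprints. These 3 calls became 0 without +GLU footprint replicate 2, 1 without +GLU RNA replicate 3 or +GLU footprint replicate 3, 5 with a replicate block, and 6 without both -GLU libraries numbered 3 or with the block nested in glucose state. Of the remaining aldehyde dehydrogenases, HFD1 (2.31 ± 0.27 in RNA), of fatty aldehydes, PUT2 (2.45 ± 0.23), of proline use, and UGA2 (1.20 ± 0.20), of GABA use, rose, and MSC7 changed by -1.57 ± 0.28; the same directions were called in footprints. UGA2 was also called in efficiency, at 0.95 ± 0.26 (adjusted p = 0.0312), but no gene of this list was called there when any 1 of the 6 +GLU libraries, -GLU RNA replicate 1 or -GLU RNA replicate 2 was left out. The synthesis of polyamines, beta-alanine and pantothenate, in which Ald2 and Ald3 act, had 1 gene up and 7 down of 9 in RNA (median -0.91) and 0 up and 6 down in footprints (median -1.53). Against 8 calls in RNA, 5 were made without +GLU RNA replicate 3 and 4 within the cellulose libraries. SPE3, spermidine synthase, changed by -1.80 ± 0.29 in RNA and -2.35 ± 0.31 in footprints, and PAN6, pantothenate synthase, by -1.79 ± 0.27 in RNA and -3.03 ± 0.20 in footprints. PAN5, of the step before it, changed by -1.37 ± 0.21 in RNA and -1.53 ± 0.20 in footprints. In efficiency PAN6 alone of the 9 was called, at -1.19 ± 0.34 (adjusted p = 0.0403), against 4.48% of all genes called lower. No gene of this list was called there with total counts or without +GLU footprint replicate 1, 2 or 3. SPE1, ornithine decarboxylase, rose by 0.81 ± 0.27 in RNA and stood at 0.08 ± 0.19 in footprints, where it did not pass the test.

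**Figure D5:**
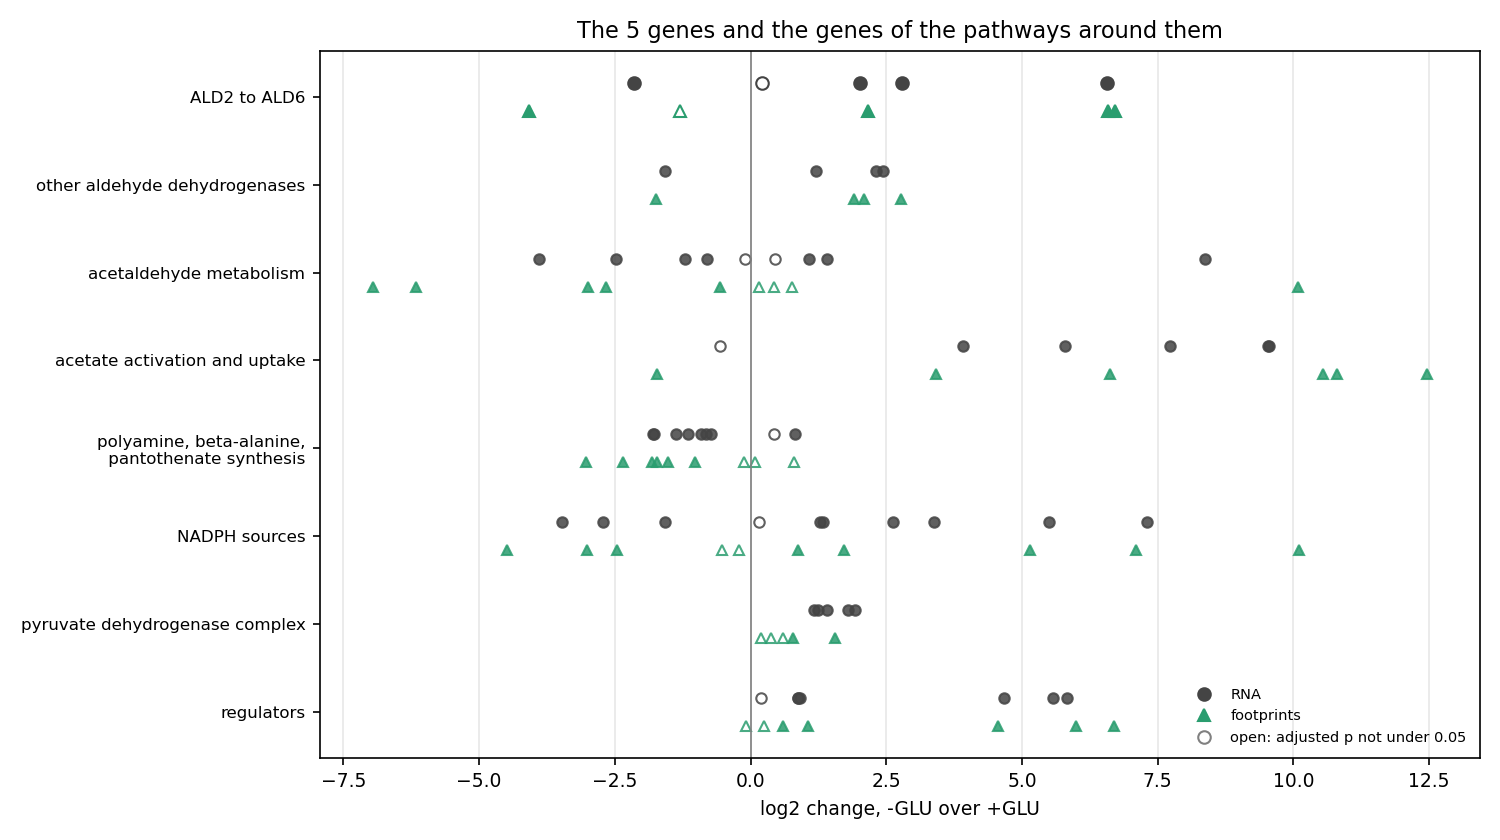
Log2 change of -GLU over +GLU (horizontal axis) in RNA (circles) and footprints (triangles) for the 5 members (top row) and for the genes of 7 lists around them, with open symbols where the adjusted p was not under 0.05. The acetate genes reach 9.56 in RNA, the polyamine to pantothenate genes lie mostly below 0, and the members span -4.08 to 6.71.

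Of 7 transcription factors that act on glucose-repressed, stress or NADPH genes, 5 rose and 0 fell in RNA (median 0.91) and 5 rose in footprints (median 1.07). The RNA count was 3 within the cellulose libraries and 7 without +GLU RNA replicate 1. CAT8, an activator of gluconeogenesis, rose by 5.83 ± 0.34 in RNA, ADR1, an activator of ethanol and fat use, by 5.58 ± 0.29, and HAP4, of the respiratory activator, by 4.68 ± 0.33. MSN2 and MSN4, for the activators of stress genes, changed by 0.19 ± 0.28 and 0.87 ± 0.39 in RNA and did not pass the test. In footprints MSN4 rose by 0.60 ± 0.18 (adjusted p = 0.0208) and MSN2, at -0.09 ± 0.16, did not pass. The stress response element to which these activators bind, CCCCT on either strand, occurs in the 500 bases before the start codon of 34.0% of 6019 genes, and at least 2 times in 8.12%. ALD3 and ALD4 have 2 matches each, ALD5 and ALD6 1 each and ALD2 0. The matches of the 2 genes with a pair are shown in windows of 30 bases along the gene's strand, motif in capitals.
ALD3 (chrXIII:601217-601246, minus strand, far end 362 bases before the start codon): ttcttccttcccCCCCTggagtacaaggaa
ALD3 (chrXIII:601094-601123, minus strand, far end 239 bases before): ttgttgatcagcCCCCTtcttaagctgatt
ALD4 (chrXV:1039515-1039544, plus strand, far end 313 bases before): tgatgtcatttcCCCCTcatttttgtttgc
ALD4 (chrXV:1039636-1039665, plus strand, far end 192 bases before): agatggaaaatgAGGGGcgggtgtaggtaa
A match is a description of the reference sequence and not of binding in these cells.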

How the data were processed

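Per the labels, footprints were isolated as single ribosomes after digestion of 50 OD units of extract with 50 U of RNase I, and fragments of about 28 nt were sequenced. The authors deposited counts per gene, whole numbers but for 1 gene, and RPKM values. The deposited columns of -GLU RNA replicates 1 and 2 are named expected counts here because 1 entry in each was not whole, and that gene was left out, with no rounding needed. Of 5704 genes 5703 were analysed. The sources used here name no aligner, counter, build or use of strand. Libraries were grouped by their titles.

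Changes were fitted on the whole table with edgeR 4.0.16 in R 4.3.3 (quasi-likelihood F test, TMM factors, filterByExpr with a minimum count of 10, Benjamini-Hochberg adjustment at 0.05), and an SE is the change divided by the square root of F. Efficiency was the interaction of assay and glucose state. DESeq2 1.42.0 was an alternative. The script was tested on simulated data. Coding sequences came from R64 and were aligned with Biopython 1.88. No molecular identifiers are named in the labels; floors and intervals reflect counting error alone. A floor of 3 counts lay at 0.22 to 1.37 CPM, on the normalised scale, in replicated libraries. Members, lists and likeness rule were chosen with earlier results of these data known. Of each list, up to 3 called genes with the largest rise and up to 3 with the largest fall in RNA are named; others named beside them (ACS2, MSN2, MSN4) were chosen after their values were seen.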

Additional observations from a re-analysis of the deposited data

How the results depend on the processing

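ALD2, ALD4 and ALD5 kept their direction and call in RNA and footprints under every alternative run, except ALD5 RNA with the cellulose-selected libraries alone (-2.14, adjusted p = 0.0504, range 1.26e-07 to 0.0504). Over the 3 tests, 222 of 238 alternative values for the members stayed on their side of the threshold. ALD3 RNA lost its call with the cellulose libraries alone (2.66), with the libraries without rRNA subtraction alone (3.27), each with 1 library with glucose assumed to vary like the others, and in the model over 12 libraries (2.80). DESeq2 gave no adjusted p for ALD3 in footprints and efficiency. With 1 library left out, ALD3 footprints ranged from 2.76 to 7.34, ALD6 footprints from -2.31 to -0.80, ALD5 efficiency from -2.43 to -1.53 and ALD3 efficiency from 0.04 to 4.97. ALD5 efficiency was called with size factors (-1.99), with DESeq2 (-1.996), with a replicate block (-1.88), with a replicate block nested in the glucose state (-1.91), without both -GLU libraries numbered 3 (-1.88), without -GLU RNA replicate 3 (-2.43) and without -GLU footprint replicate 2 (-2.28); the nested block and the fit without both libraries numbered 3 also called ALD6 efficiency, at -1.57 and -1.46, and were chosen after seeing the data. The pairing of equal numbers was checked by the correlation over genes of deviations from group means. It was 0.40 to 0.64 between RNA and footprints without glucose, 0.089 to 0.19 between them with glucose and -0.13 to 0.14 between the glucose states. Without glucose, RNA replicate 2 stood at 0.38 with footprint replicate 1, beside 0.40 with its own number. Replicate 3 of each assay stood at -0.64 to -0.36 with replicates 1 and 2 of the other. With glucose, 1 of 3 correlations was under 0.1, and equal numbers were not taken to pair those libraries or the states. The nested block nevertheless pairs equal numbers in both states. The replicate block that was not nested moved the genes called to 3130 in RNA, 3293 in footprints and 780 in efficiency, against 3343, 3446 and 756 without it.

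Genes called numbered 1764 with the cellulose libraries and 2078 without rRNA subtraction in RNA. In efficiency they ranged from 273 to 1034 with 1 library left out, and were 1378 without both -GLU libraries numbered 3 and 1435 with the nested block. The share of calls that were higher was 52.2% in footprints and 66.8% with total counts, and in efficiency 67.3%, 53.8% with size factors, 84.9% with total counts and 51.6% with DESeq2. For the lists, 285 of 336 alternative counts of calls lay within 1.5 times. With TMM factors the drug-free ratio of ALD4 between harvests turned to -0.16 on the log2 scale, against 0.02 by total counts. The cause of these differences was not tested. Depth limits ALD3 most, with 8 footprint counts in the 3 +GLU libraries with cycloheximide together.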
